A study of Mus musculus with 19 samples.

Results

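Smooth muscle contractile genes are described here as 10 genes chosen by symbol: Acta2, Actg2, Myh11, Mylk, Tagln, Cnn1, Smtn, Lmod1, Myocd and Itga8. These genes and the gene lists used below were chosen with earlier results of these data known. Counts given beside the share of all genes are therefore descriptions. All 10 were measured, out of 22180 genes with a probe set of their own symbol. Expression was measured on 19 Affymetrix arrays, with 1 labelled RNA sample on each, as log2 intensity. The groups were 7 angiosarcomas, 4 aortas, 4 quadriceps femoris muscles of the thigh and 4 sternocleidomastoid muscles of the neck. Angiosarcoma is a malignant tumor with endothelial features. All animals had a mixed C57Bl/6 and 129X1/SvJ background. Tumor-bearing animals had the genotype aP2-Cre/+;DicerFlox/-, in which Cre recombinase is driven by the aP2 (Fabp4) promoter, 1 Dicer allele is floxed and the other is null. The aortas and muscles were from animals of wild type genotype, so tissue and genotype cannot be told apart in any tumor comparison. The labels give no age, sex or animal, and the p-values therefore measure only the spread between these samples, which may be technical.

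Smooth muscle cells contract when calcium and calmodulin activate myosin light chain kinase, which phosphorylates the light chains of smooth muscle myosin and lets it pull on smooth muscle actin. Most genes of this apparatus are switched on by serum response factor (SRF) bound to CArG boxes, together with the coactivator myocardin, and they mark the contractile wall of arteries. Some of them, above all Acta2, are also made by pericytes and by activated fibroblasts. In tissue samples, fewer smooth muscle cells and less RNA per cell cannot be told apart.

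Promoter sequence is shown for Acta2, whose level stayed closest to aorta among the members that fell, and for Cnn1 and Itga8, which fell most. Windows upstream of 1 annotated transcription start per gene were found in RefSeq (GRCm38.p6) for 6 of the 10 genes: Acta2, Cnn1, Itga8, Lmod1, Mylk and Smtn. For Acta2, Cnn1, Itga8 and Mylk this start lay inside the annotated span of the gene. Their windows therefore lie partly, or for Mylk wholly, within the gene, and other starts were not examined. Each printed window holds the 250 bases before the start used, on the strand of the gene. Capitals mark CArG-like matches, which are CArG boxes with at most 1 other base in the A/T core.
Acta2, chr19:34255374-34255623, minus strand: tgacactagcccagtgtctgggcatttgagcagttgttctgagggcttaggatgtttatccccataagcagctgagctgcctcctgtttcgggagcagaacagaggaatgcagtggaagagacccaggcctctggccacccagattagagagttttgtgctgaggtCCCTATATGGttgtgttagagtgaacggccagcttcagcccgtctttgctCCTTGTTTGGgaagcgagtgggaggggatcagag
Cnn1, chr9:22099003-22099252, plus strand: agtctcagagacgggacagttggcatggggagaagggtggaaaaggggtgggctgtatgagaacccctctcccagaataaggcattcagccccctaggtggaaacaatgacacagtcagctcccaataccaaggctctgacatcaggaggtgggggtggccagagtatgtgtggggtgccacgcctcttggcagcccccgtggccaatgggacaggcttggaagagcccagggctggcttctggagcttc
Itga8, chr2:12301945-12302194, minus strand: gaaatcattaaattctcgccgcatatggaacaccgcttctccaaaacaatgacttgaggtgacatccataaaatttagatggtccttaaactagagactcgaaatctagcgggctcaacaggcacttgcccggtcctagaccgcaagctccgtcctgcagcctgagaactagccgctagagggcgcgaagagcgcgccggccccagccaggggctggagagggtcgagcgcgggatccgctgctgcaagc

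The Acta2 window held 2 CArG-like matches, CCCTATATGG and CCTTGTTTGG, each with 1 other base in the core. The other 5 windows held none, and an exact CArG box was in none of the 6. Among all 32851 RefSeq windows of this length, 1.47% held an exact CArG box and 8.59% a CArG-like match; the pattern reads the same on both strands. The MCAT motif, CATTCC on either strand, was in 4 of the 6 windows (Acta2, Lmod1, Mylk and Smtn) and in 12.6% of all windows. These matches describe letters in a short window and are not evidence of binding.

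In the normal tissues all 10 genes were higher in aorta than in the mean of the skeletal muscles, with median log2 difference 2.94 against 0.01 over all genes. By limma with Benjamini-Hochberg adjustment over 22180 genes and a threshold of 0.05, 17.0% of all genes were called higher in aorta. Every aorta lay above all 8 muscles for each of the 10 genes, which held for 14.6% of all genes. The differences ran from 1.15 ± 0.14 (SE) for Smtn, the actin-associated protein smoothelin, to 5.45 ± 0.25 for Itga8, the integrin alpha 8 chain (adjusted p = 3.15e-06 and 4.06e-12). The aorta samples also held markers of other tissues: the mean of 10 heart muscle markers was 9.53 to 10.29 in aortas and 6.11 to 6.47 in muscles. The mean of 8 brown adipocyte markers was 10.55 to 11.18 in aortas. Their part in the levels of the 10 genes was not tested.

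**Figure D1:**
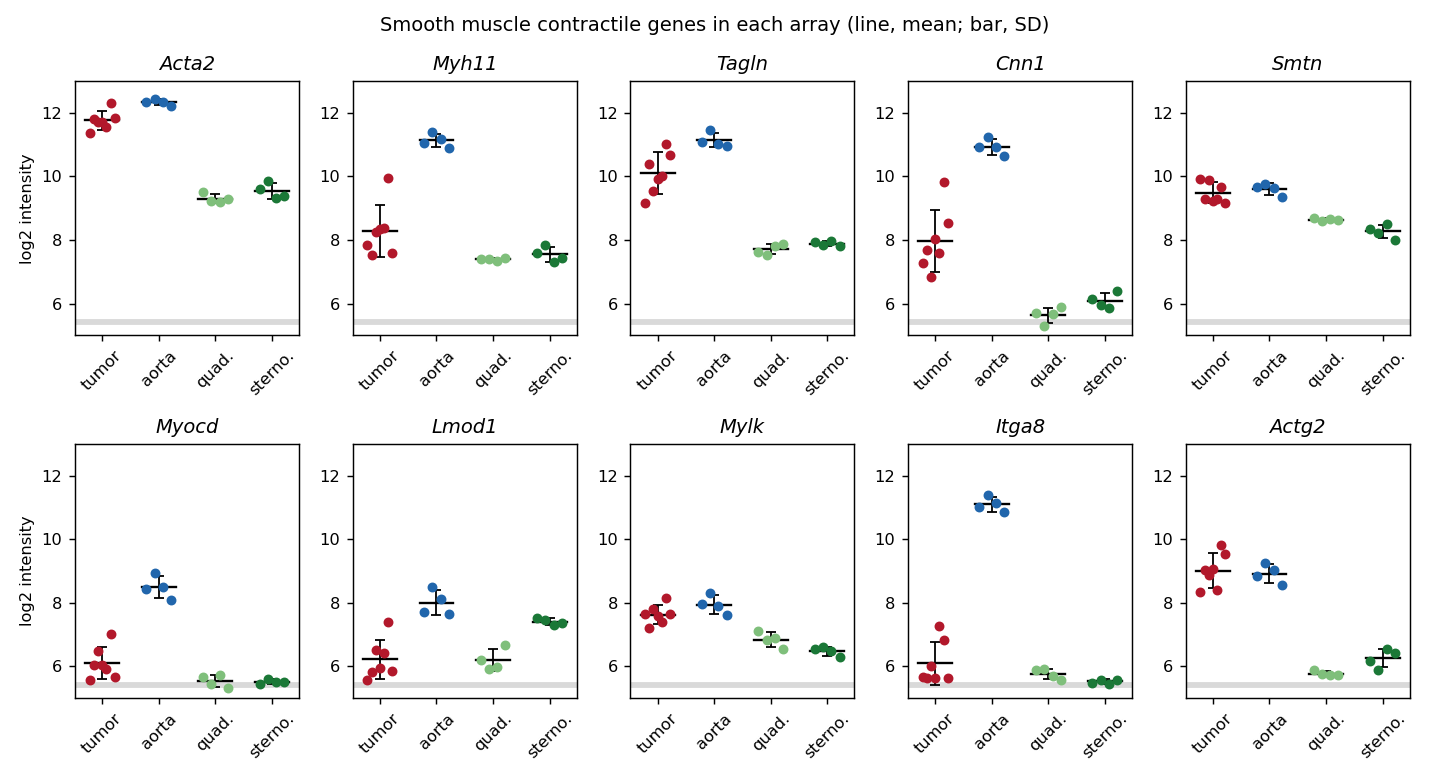
Log2 intensity (vertical axis) of the 10 smooth muscle contractile genes in each of the 19 arrays, by group (horizontal axis: 7 tumors, 4 aortas, 4 quadriceps femoris, 4 sternocleidomastoid). Points are arrays, lines are group means, bars are SD, and the grey band is the range of the array medians, 5.35 to 5.48; the tumors lie near aorta for Acta2, Smtn, Mylk and Actg2 and far below it for Myh11, Cnn1, Myocd and Itga8.

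Against aorta the angiosarcomas separated the contractile genes. Itga8, Cnn1, Myh11, Myocd, Lmod1, Tagln and Acta2 fell, from 32-fold lower for Itga8 to 1.49-fold lower for Acta2. Smtn, Mylk and Actg2 did not pass the threshold. That is 7 of 10 genes lower and none higher, also at an unadjusted p under 0.05. Of all genes 36.2% were called, 17.5% lower and 18.6% higher. The median difference of the 10 genes was -1.40, against -0.02 over all genes. For Itga8, Cnn1, Myh11, Myocd and Lmod1 every tumor lay below every aorta, which held for 11.5% of all genes.

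The actins lay near their aorta levels, although Acta2 fell. Acta2, smooth muscle alpha actin, measured 12.34, 12.45, 12.35 and 12.21 in the 4 aortas, and its lowest, median and highest tumor values were 11.37, 11.72 and 12.31. Of the 7 tumors 6 lay below the aortas and tumor 6 lay among them. The difference was -0.58 ± 0.14 (SE; limma adjusted p = 0.00263). The call was lost when only tumors 5 to 7 were used (-0.44, adjusted p = 0.0579).
Actg2, the gamma actin best known from the smooth muscle of gut and other hollow organs, measured 8.83, 9.25, 9.04 and 8.55 in the aortas and 8.35, 9.04 and 9.82 (lowest, median, highest) in the tumors. The groups overlapped, with 2 tumors above and 2 below the aorta range. Its difference was 0.09 with a 95% interval of -0.38 to 0.57 (adjusted p = 0.799), and its sign turned under some settings given with the limits. Actin genes are closely related in sequence, and nothing in the labels says how far these probe sets keep them apart.

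The motor and its kinase differed from each other. Myh11, the smooth muscle myosin heavy chain, measured 11.05, 11.41, 11.17 and 10.90 in aortas, and 7.53, 8.26 and 9.95 (lowest, median, highest) in tumors. All tumors were low and tumor 6 was the highest of them by a wide gap. Myh11 was 7.25-fold lower (log2 difference -2.86 ± 0.31, limma adjusted p = 6.13e-07). Mylk, the myosin light chain kinase, had means of 7.63 ± 0.30 (SD, n = 7) in tumors and 7.94 ± 0.29 (n = 4) in aortas. Its groups overlapped, with 4 tumors inside the aorta range, and the difference of -0.31 had a 95% interval of -0.64 to 0.01 (adjusted p = 0.133). Without tumor 6 the Mylk difference was -0.40 and passed the threshold (limma adjusted p = 0.0302). It also passed after housekeeping centring, in which the mean of 12 housekeeping genes is made equal on all arrays (-0.64, adjusted p = 0.00506). That centring moved the median of all genes to -0.35 against aorta. Under it 14476 of 22180 genes were called against aorta, in place of 8023.

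Among the actin-binding regulators, Cnn1, calponin, which restrains the actin-activated myosin ATPase, measured 10.91, 11.24, 10.91 and 10.65 in aortas. Its lowest, median and highest tumor values were 6.84, 7.69 and 9.83. All tumors were below all aortas, and the difference was -2.96 ± 0.37 (SE; limma adjusted p = 3.45e-06), or 7.78-fold. Tagln, transgelin or SM22 alpha, measured 11.09, 11.46, 11.03 and 10.96 in aortas and 9.15, 10.01 and 11.03 (lowest, median, highest) in tumors. Tumor 6 reached the aorta range and the other 6 tumors lay below it, with a difference of -1.03 ± 0.25 (adjusted p = 0.00267).
Lmod1, leiomodin, which nucleates actin filaments, measured 7.72, 8.50, 8.12 and 7.65 in aortas and 5.56, 5.96 and 7.40 (lowest, median, highest) in tumors. The groups did not overlap, and the difference was -1.78 ± 0.26 (adjusted p = 2.49e-05). Smtn had means of 9.49 ± 0.33 (SD, n = 7) in tumors and 9.61 ± 0.18 (n = 4) in aortas. Its difference of -0.11 (95% interval -0.42 to 0.19, adjusted p = 0.603) became -0.44 after housekeeping centring and then passed (adjusted p = 0.0215). The shift of all genes under that centring, given with Mylk, applies to Smtn too. Smtn had a second probe set, near the array medians at 5.56 to 6.04 in tumors and 5.45 to 5.75 in aortas.

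Myocd, myocardin, the coactivator of SRF, measured 8.44, 8.95, 8.50 and 8.08 in aortas and 5.57, 6.03 and 7.02 (lowest, median, highest) in tumors. Of the 7 tumors 2 lay inside the range of the muscles. The low tumor values were near the array medians, so the size of the Myocd difference is limited by dim signal. All tumors were below all aortas, and the difference was -2.39 ± 0.21 (SE; limma adjusted p = 5.89e-08), or 5.23-fold. Itga8, which pairs with the beta 1 chain in a receptor for matrix proteins, measured 11.02, 11.38, 11.13 and 10.84 in aortas. In tumors its lowest, median and highest values were 5.62, 5.67 and 7.27, and 4 of the 7 tumors lay inside the range of the muscles. The median tumor lay just above the array medians of 5.35 to 5.48, so the size of the fall, like the 32-fold, is limited by dim signal. The difference was -5.0 ± 0.26 (adjusted p = 1.15e-10); only 0.03% of all genes had a more negative difference. Heart muscle cells also express Myocd. In the tumors all 10 heart muscle markers were lower than in aorta, with a list mean of 5.43 to 6.10, and Myl7, Myh6, Mybpc3 and Ryr2 had means under all the array medians. The part of heart muscle RNA in the Myocd difference was not tested.

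**Figure D2:**
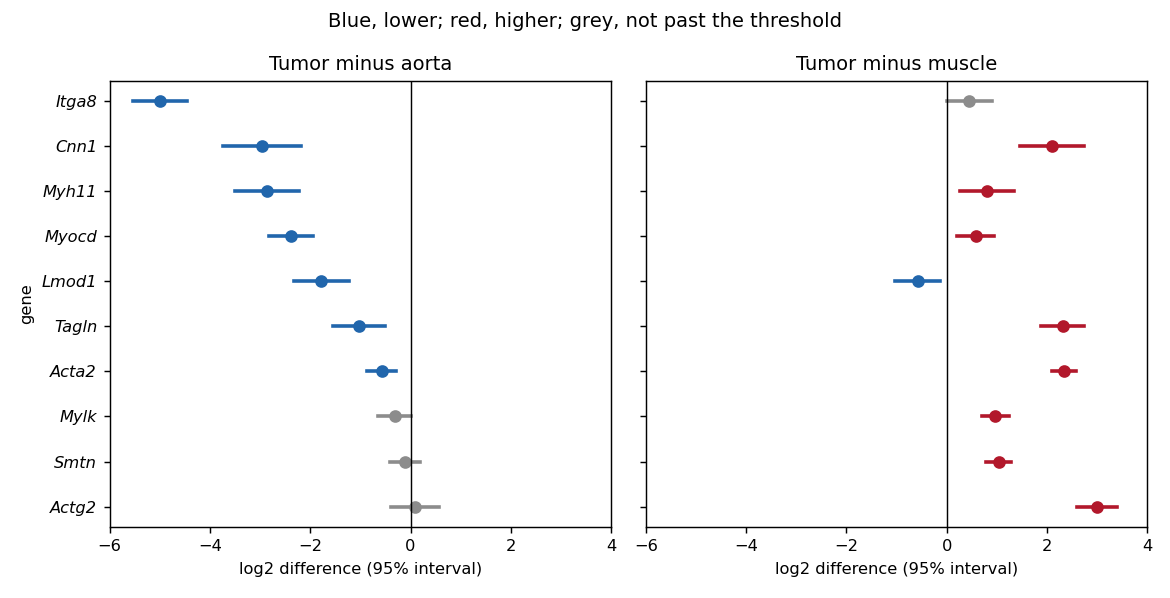
Log2 difference (horizontal axis) of the 10 genes (vertical axis) between tumor and aorta, left, and between tumor and the mean of the muscle groups, right. Points are fitted differences and lines are 95% intervals; 7 genes were lower than in aorta and 8 were higher than in muscle.

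Whether the genes changed by unequal amounts was tested within arrays, as the difference of each gene from Acta2 on the same array. The lowest tumor values of Itga8 (5.62), Myocd (5.57) and Lmod1 (5.56) lay just above the array medians of 5.35 to 5.48. That limits the size of their falls. Whether probe sets respond alike at low signal and at the high signal of Acta2 was not tested. Against aorta, Itga8 fell by 4.42 more than Acta2 on the log2 scale, Cnn1 by 2.38, Myh11 by 2.28, Myocd by 1.81 and Lmod1 by 1.20 more. For each of these genes the groups did not overlap (two-sided exact permutation test over 7 tumors and 4 aortas, p = 0.00606, the smallest that 330 regroupings allow; adjusted p = 0.00909 over 9 genes). Actg2 (0.67, exact permutation adjusted p = 0.00909) and Smtn (0.47, adjusted p = 0.0156) moved up relative to Acta2. After quantile normalization these became 0.45 (adjusted p = 0.0727) and 0.28 (adjusted p = 0.341). Genes outside the set were not tested against Acta2. The share of all genes that would separate in this way is therefore not known, and these counts are not set against it.
Tagln (-0.45, exact permutation adjusted p = 0.0545) and Mylk (0.27, adjusted p = 0.097) did not pass. Tagln passed without tumor 6 (-0.51, adjusted p = 0.0429) or tumor 7 (-0.53, adjusted p = 0.0214) and when only tumors 1 to 4 were used (-0.69, adjusted p = 0.0321). Mylk passed without tumor 2 (0.34, adjusted p = 0.0429).

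Against skeletal muscle, 8 of 10 genes were higher in the tumors and Lmod1 was lower, while 51.0% of all genes were called, 25.3% higher and 25.7% lower. The median difference was 1.01, against -0.04 over all genes. Markers of other cells moved in the same comparison: 9 of 10 pericyte, 6 of 10 fibroblast, 10 of 10 endothelial and 8 of 8 macrophage markers were higher in tumors, and 10 of 10 skeletal muscle markers were lower, with a median of -4.29. Their part in the levels of the contractile genes was not tested. Acta2, Tagln, Cnn1, Smtn, Mylk and Actg2 were higher in every tumor than in every muscle, which held for 14.6% of all genes; no member lay below every muscle in all tumors, against 12.7%. Actg2 had the largest difference, 3.0 ± 0.19 (SE; limma adjusted p = 8.51e-11), or 7.98-fold. Its muscle values, close to the array medians in quadriceps, which limits the fold, were 5.89, 5.75, 5.73 and 5.72 in quadriceps and 6.18, 5.89, 6.53 and 6.43 in sternocleidomastoid. Acta2 was higher by 2.34 ± 0.12 (adjusted p = 3.33e-12), Tagln by 2.31 ± 0.21 (1.1e-08), Cnn1 by 2.10 ± 0.30 (7.73e-06), Smtn by 1.04 ± 0.12 (4.58e-07) and Mylk by 0.97 ± 0.13 (2.62e-06).

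The remaining 4 genes overlapped with muscle. Myh11 was higher by 0.80 ± 0.25 (limma adjusted p = 0.0122), and 3 of 7 tumors lay within the muscle range of 7.32 to 7.85. Without tumor 6 the Myh11 difference was 0.52. Myocd was higher by 0.58 ± 0.18 (adjusted p = 0.00905). Housekeeping centring left 0.35 for Myh11 (adjusted p = 0.237) and 0.13 for Myocd (adjusted p = 0.542). Itga8 differed by 0.45 (95% interval 0.01 to 0.90, adjusted p = 0.0846), and passed without tumor 2 (0.53, adjusted p = 0.0497) or when only tumors 5 to 7 were used (0.93, adjusted p = 0.00396). Lmod1 was lower by 0.58 ± 0.22 in size (log2 difference -0.58, adjusted p = 0.0321), and this call was lost without tumor 1, 2, 4 or 7, quadriceps 4 or sternocleidomastoid 1 (adjusted p = 0.0535 to 0.0798). It was also lost when only tumors 5 to 7 were used (-0.25, adjusted p = 0.489).

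Lmod1 was the gene of the set that differed most between the muscles. It measured 6.20, 5.92, 5.99 and 6.67 in quadriceps and 7.52, 7.47, 7.29 and 7.35 in sternocleidomastoid. Every neck sample was above every thigh sample, with a difference of 1.21 ± 0.30. That did not pass the threshold (limma adjusted p = 0.111, unadjusted p = 0.000691). It passed with 1 variance per group (adjusted p = 0.0117), in a fit of the muscles alone (0.00639) and without tumor 6, which enters the shared estimate of the spread (0.0112). No member was called between the muscles, where 0.433% of all genes were called. Lmod1 and Smtn, 2 of the members, had an unadjusted limma p under 0.05. The share of all genes under that unadjusted threshold was not computed, so this count is not set against it. Lmod1 and Smtn were also the 2 members whose muscle groups did not overlap, in opposite directions, against 4.0% (higher) and 3.60% (lower) of all genes. The mean of the 8 brown adipocyte markers was 6.47 to 7.97 in quadriceps and 8.15 to 9.55 in sternocleidomastoid, and 2 of the 8 were called higher there. Their part in the Lmod1 difference was not tested.

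The levels fell into a few orders. For Acta2, Tagln and Cnn1 the order was aorta, tumor, then the muscles, and each step passed the test except that between the muscles. For Smtn, Mylk and Actg2, aorta and tumor did not differ beyond the threshold and both were above muscle. For Myocd the tumors lay below aorta and above quadriceps (0.57, limma adjusted p = 0.0359) and sternocleidomastoid (0.59, adjusted p = 0.0275). For Myh11 the step from tumor to sternocleidomastoid (0.73, limma adjusted p = 0.0608) did not pass. Itga8 did not pass against either muscle, quadriceps (0.33, adjusted p = 0.322) or sternocleidomastoid (0.57, adjusted p = 0.0792). For Lmod1 the order was aorta, sternocleidomastoid, tumor and quadriceps. The first step, 0.59 with a 95% interval of -0.03 to 1.22, did not pass (adjusted p = 0.162), and tumor and quadriceps differed by 0.02 (95% interval -0.53 to 0.58, adjusted p = 0.956).

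**Figure D3:**
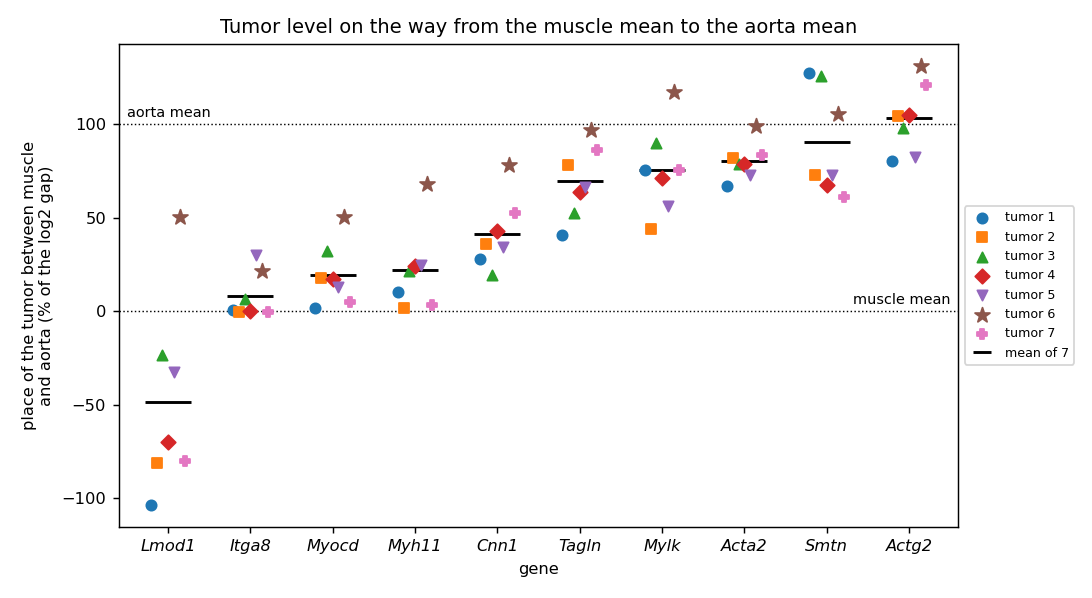
Place of each of the 7 tumors (vertical axis) between the mean of the muscle groups (0%) and the mean of the aortas (100%) on the log2 scale, for each gene (horizontal axis). Symbols are tumors and black bars their mean, which runs from -48.6% for Lmod1 and 8.3% for Itga8 to 103.2% for Actg2; tumor 6 is highest for 8 of the 10 genes.

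The place of the tumors was also expressed relative to the gap between muscle and aorta, which differed in size between the genes. On the log2 scale the mean tumor stood at 103.2% of the way from muscle to aorta for Actg2, 90.2% for Smtn, 80.2% for Acta2, 75.6% for Mylk and 69.3% for Tagln. It stood at 41.5% for Cnn1, 21.9% for Myh11, 19.5% for Myocd and 8.3% for Itga8. Lmod1, with sternocleidomastoid near aorta, was at -48.6%. Single tumors ranged widely, from 1.5% to 67.6% for Myh11 and from 40.6% to 96.9% for Tagln.

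The tumors differed from each other more in some of these genes than in others. Tumor 6 was the highest tumor for 8 genes: Acta2, Myh11, Tagln, Cnn1, Myocd, Lmod1, Mylk and Actg2. Tumor 5 was the highest for Itga8 and tumor 1 for Smtn. Tumor 1 was the lowest for 5 genes (Acta2, Tagln, Myocd, Lmod1 and Actg2). The SD among tumors was 0.98 for Cnn1, 0.82 for Myh11 and 0.68 for Itga8, against 0.21 for the median gene, and 0.25, 0.21 and 0.23 among aortas. It was smaller for Acta2 (0.29), Mylk (0.30, against 0.29 among aortas) and Smtn (0.33), at the 69.3, 71.1 and 74.6 percentiles of all genes. Tumor 6 had a pericyte list mean of 8.88, below only tumor 3 in a tumor range of 8.14 to 9.43. Its fibroblast list mean was 10.29, in a tumor range of 9.61 to 11.11. The part of these cells in the levels of tumor 6 was not tested.
Its skeletal muscle list mean of 5.55 was above only tumor 5 at 5.24, and the highest was tumor 2 at 10.57. Without tumor 6, 8 genes were lower than in aorta in place of 7.

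Over the 7 tumors the level of each gene was set against that of Myocd, a family of 9 relations added after the values were seen. Pearson's r was highest for Lmod1 (r = 0.918, exact permutation p = 0.00714, adjusted p = 0.0643; rho = 0.75, exact permutation p = 0.0663, adjusted p = 0.597). Myh11 followed with r = 0.84 (exact permutation p = 0.0258, adjusted p = 0.111) and rho = 0.393 (exact permutation p = 0.396, adjusted p = 0.713). None of the 9 passed the adjustment. The low Myocd values of the tumors lay near the array medians, which limits these relations. Without tumors 1 and 6, the 2 farthest from the Myocd median, r ran from -0.92 for Cnn1 to 0.917 for Smtn, and was 0.611 for Lmod1 and 0.408 for Myh11.

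Other parts of the contractile machinery were examined as 3 gene lists. Of 22 contractile and cytoskeletal genes, 9 rose and 3 fell against aorta, beside 18.6% and 17.5% of all genes. The list median was 0.13. After housekeeping centring, which moved the median of all genes to -0.35, 7 rose and 7 fell. The 4 largest changes were increases of genes found in most cell types: the nonmuscle myosin heavy chain Myh9 (1.88 ± 0.15), calponin 2, Cnn2 (1.73 ± 0.19), the tropomyosin Tpm4 (1.59 ± 0.14) and transgelin 2, Tagln2 (1.47 ± 0.16). All of these stayed higher in the 3 other scalings. Myh9, Cnn2 and Tagln2 belong to the families of Myh11, Cnn1 and Tagln, which fell. Not every such gene moved: the other nonmuscle myosin of the list, Myh10, differed by 0.16 (95% interval -0.29 to 0.61, limma adjusted p = 0.618). Among genes singled out after their values were seen, the tropomyosins Tpm1 (-0.19, 95% interval -0.49 to 0.11, adjusted p = 0.331) and Tpm2 (-0.10, -0.71 to 0.52, 0.846) and the light chain Myl6 (0.19, -0.14 to 0.53, 0.389) did not pass either. The myosin light chain Myl9 fell by 0.78 ± 0.19 (limma adjusted p = 0.00301) and the actin-associated Synpo2 by 1.13 ± 0.19 (adjusted p = 0.000116), while Cald1, caldesmon, rose by 0.66 ± 0.12 (adjusted p = 0.000303). Against muscle, 15 of the 22 were higher and 7 lower, beside 25.3% and 25.7% of all genes.

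**Figure D4:**
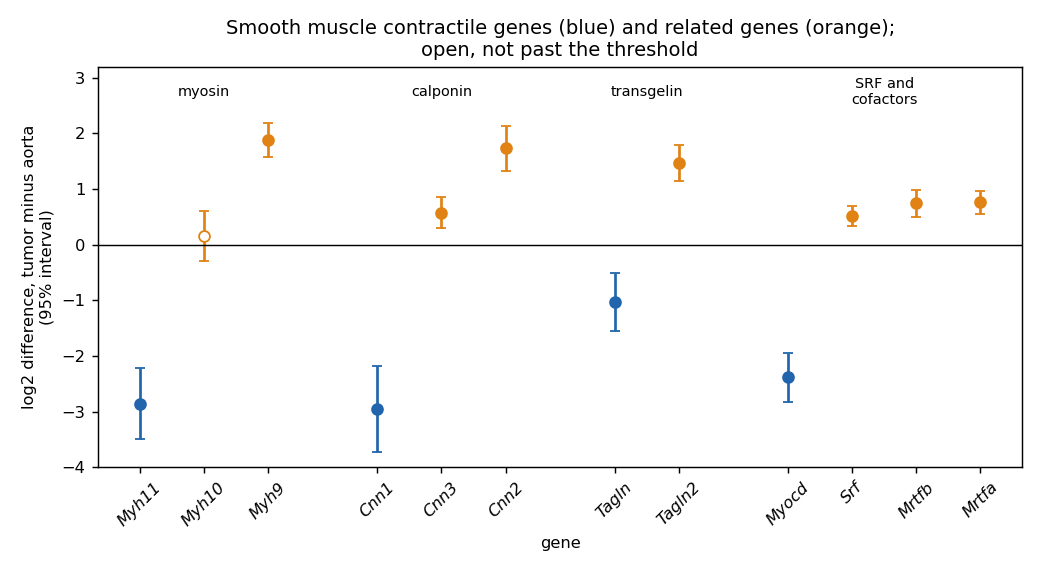
Log2 difference between tumor and aorta (vertical axis) for smooth muscle contractile genes, blue, and related genes, orange (horizontal axis), in the myosin, calponin and transgelin families and among SRF and its cofactors. Points are fitted differences, bars are 95% intervals and an open point did not pass the threshold; the blue genes are below 0, and Myh9, Cnn2, Cnn3, Tagln2, Srf, Mrtfa and Mrtfb are above it, of which Cnn3 (0.25) and Srf (0.19) missed the threshold after housekeeping centring.

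Among 18 measured genes of calcium, light chain phosphorylation and cGMP signaling, 10 fell against aorta, beside 17.5% of all genes. The other 8 did not pass, and the list median was -0.54. After housekeeping centring, which moved the median of all genes to -0.35, 14 fell. The largest falls were in phospholamban, Pln (-5.36 ± 0.17), which restrains the calcium pump of the sarcoplasmic reticulum, and in the calcium-activated potassium channel subunits Kcnmb1 (-2.70 ± 0.26) and Kcnma1 (-1.84 ± 0.39). The pump gene Atp2a2 fell by 1.07 ± 0.13. The tumor mean of Pln, 5.03, was under all the array medians, so the size of its fall is limited by dim signal. Pln is also a gene of heart muscle, whose markers fell as given above. The part of heart muscle RNA in the falls of Pln, Atp2a2 and the other genes of this list was not tested. The kinase gene Rock1, which keeps light chains phosphorylated, fell by 0.51 ± 0.11 (limma adjusted p = 0.00103), and the phosphodiesterase gene Pde5a, which breaks down cGMP, by 0.81 ± 0.26 (adjusted p = 0.0198). Against muscle, 12 of the 18 were higher and 5 lower, beside 25.3% and 25.7% of all genes.

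Srf, Mrtfa and Mrtfb were higher in tumors than in aortas, while Myocd was lower. Srf had means of 8.47 in tumors and 7.96 in aortas (difference 0.51 ± 0.09, limma adjusted p = 1e-04). The myocardin-related factors, which carry actin signals to SRF in many cell types, were also higher: Mrtfa by 0.76 ± 0.10 (adjusted p = 4.46e-06) and Mrtfb by 0.74 ± 0.12 (adjusted p = 5.18e-05). In the list of 15 regulators, all tumors were above all aortas for these 3 genes and Prrx1, which held for 12.2% of all genes. For Csrp2 all tumors were below all aortas, against 11.5% of all genes. The groups of the other regulators, Klf4 among them, overlapped. Housekeeping centring left 0.44 for Mrtfa (adjusted p = 0.00296), 0.42 for Mrtfb (0.012) and 0.19 for Srf, which then missed the threshold (0.0748). Klf4, a repressor of contractile genes in cultured smooth muscle, rose by 0.70 ± 0.20 (adjusted p = 0.0107; 0.38 and 0.134 after that centring).
The whole list of 15 regulators had 6 higher and 5 lower, beside 18.6% and 17.5% of all genes (3 and 7 regulators after that centring). Its largest changes were in the LIM protein Csrp2 (-1.16 ± 0.24), the homeobox factor Prrx1 (1.12 ± 0.16), Gata6 (-0.88 ± 0.27) and Fhl1 (-0.88 ± 0.29). Csrp2, Gata6 and Fhl1 thus fell as Myocd did. Heart muscle markers fell too, as given above, and the part of heart muscle RNA in these falls was not tested. Against muscle, Srf was lower by 0.78 in size (difference -0.78 ± 0.07, adjusted p = 1.65e-08), and Mrtfa (0.10, adjusted p = 0.317) and Mrtfb (0.18, adjusted p = 0.136) did not pass.

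Markers of other cells that express some of these genes moved as well. The counts against aorta stand beside 18.6% of all genes called higher and 17.5% called lower. Of 10 pericyte markers 4 rose against aorta and 1 fell, and their list mean was 8.14 to 9.43 in tumors and 7.98 to 8.19 in aortas. Notch3 (1.52 ± 0.29), Ndufa4l2 (1.44 ± 0.18), the receptor Pdgfrb (1.38 ± 0.18) and Mcam (1.29 ± 0.20) rose, and the proteoglycan gene Cspg4 fell by 0.83 ± 0.17. Of 10 fibroblast and myofibroblast markers 6 rose (5 rose and 1 fell after housekeeping centring), with list means of 9.61 to 11.11 in tumors and 8.99 to 9.41 in aortas. Thy1 (2.25 ± 0.17) and Col1a1 (1.79 ± 0.33) rose most. All 10 endothelial markers rose (list mean 10.15 to 11.08 in tumors, 8.55 to 8.72 in aortas), as did all 8 macrophage markers. All 8 brown adipocyte markers fell, to a list mean of 4.89 to 8.22. None of 10 skeletal muscle markers passed the limma threshold, and 2 of them, Myh4 and Myh2, had an unadjusted p under 0.05. Without tumor 6, 2 of the 10 were called higher. Their list mean was 5.24 to 10.57 in tumors and 5.43 to 8.04 in aortas. Of the 12 housekeeping genes 5 rose and 2 fell, with Actb higher by 1.44. The part of pericytes and fibroblasts in the tumor levels of Acta2, Actg2, Tagln, Mylk and Smtn was not tested.

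Genes with the most similar pattern were sought by Pearson's r over the 19 arrays, as a description of arrays that share their tissue groups. The members themselves were left out, as were genes with Riken, Gm-numbered, predicted or other provisional names. Closest to Myh11 were the Notch effector Hey2 (r = 0.981), Pi15 (0.97), Pigh (0.958), Pigq (0.956), Mmp17 (0.956) and Pcdh7 (0.955). Hey2 measured 7.86 to 8.55 in aortas, 5.63 to 7.31 in tumors and 5.44 to 6.0 in muscles. Closest to Acta2 were destrin, Dstn (0.989), which severs actin filaments, filamin A, Flna (0.982), plastin 3, Pls3 (0.977), Lpp (0.977), Tacc1 (0.971) and Rock1 (0.969). Dstn measured 10.71 to 11.08 in aortas, 10.19 to 10.54 in tumors and 8.04 to 8.59 in muscles.
Within the set the highest correlations were of Myh11 with Myocd (0.978) and of Acta2 with Tagln (0.975) and Actg2 (0.964). Itga8 correlated with Myocd at 0.96 but with Actg2 at 0.476, and Lmod1 with Acta2 at 0.235.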

How the data were processed

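RNA of 19 mouse samples was hybridised to Affymetrix arrays, 1 per sample, after biotin labelling, per the labels' protocols. Values as deposited are taken to be log2 intensity (1.59 to 13.78, array medians 5.35 to 5.48). Partek 6.6 is named per the submitters' processing notes. How the authors normalized the arrays: not given in the sources used here. No further scaling was applied. Of 41345 probe sets, 23521 had 1 gene symbol; per gene the set with the highest mean was used, giving 22180 genes. Myocd, Cnn1, Itga8 and, in quadriceps, Actg2 lay close to the array medians in muscle, which limits differences there.

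Groups came from the tissue type label. A model with 1 mean per group was fitted to 19 arrays with limma 3.58.1 in R 4.3.3 (two-sided, Benjamini-Hochberg over all genes, threshold 0.05); muscle is the mean of both muscle groups. Within-array differences from Acta2 were tested by exact permutation (SciPy 1.17.1). Symbols missing from the annotation were sought by synonym, and those still without a probe set were left out. Named genes were all members, the 4 largest changes past the threshold of each list, and Srf, Mrtfa, Mrtfb and Klf4. The 6 genes most like Myh11 and the 6 most like Acta2 were also named, leaving out members and provisional names. Other list genes were chosen after their values were seen. Members and lists were chosen with earlier results of these data known. Alternatives were other scalings, a filter on dim genes, the mean over probe sets, variance models, compared groups only, stricter thresholds, tumors 1 to 4 or 5 to 7 alone (the title codes of the latter follow those of the normal tissues), a single muscle group, and each array left out in turn. The fit was tested on simulated data. The number of arrays limits the precision.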

Additional observations from a re-analysis of the deposited data

Results flagged for a closer look

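Among 40 sets of 1 gene in 1 group, 2 held a sample far from the others, about as many as the 1 in 20 that chance gives. Myh11 in tumor 6 measured 9.95, with 0.647 of the range of the tumors between it and the next tumor. Actg2 in quadriceps 1 measured 5.89, with 0.837 of the range between it and the next sample, in a group whose SD was 0.08.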

How the results depend on the processing

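The counts of 7 genes lower than in aorta and 10 higher in aorta than in muscle kept within 1.5 times under all alternatives run (7 to 8 and 10 without each array in turn). Centring on the housekeeping list moved the median of all genes to -0.35 against aorta and -0.49 against muscle. The genes called then rose from 8023 to 14476 of 22180 against aorta and from 11308 to 18452 against muscle. Of the 9 genes called between tumor and muscle (8 to 9 without each array), 5 remained with a minimum 2-fold difference. The same minimum took the calls over all genes from 11308 to 3863 of 22180. At a threshold of 0.01, 7 of the 9 remained and 9210 of all genes were called. After housekeeping centring 7 of the 9 remained. Between the muscles 0 genes were called, and 1 with 1 variance per group or with the compared groups only (0 to 1 without each array). Of 7 genes that changed by another amount than Acta2 (7 to 8 without each array), 0 passed with tumors 5 to 7 alone, where 35 regroupings allow no p below 0.0571. Actg2 against aorta turned to -0.23 with housekeeping centring and to -0.09 with tumors 1 to 4 alone, and ran from -0.042 (without tumor 6) to 0.205 without each array. Smtn against aorta turned to 0.068 with the mean over its probe sets, Lmod1 against quadriceps alone to 0.023, and Mylk relative to Acta2 to -0.007 after quantile normalization. Myocd between the muscles ran from -0.102 to 0.033 without each array. The cause of these shifts was not tested. No paired analysis was possible because the labels carry no replicate numbers and name no animals. The sample numbers used here follow the order in which the samples are listed. Whether quadriceps and sternocleidomastoid samples came from the same animals is not given, and the fit treats them as separate.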
